A study of Mus musculus with 4 samples.

Results

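Isolated PGC-1alpha peaks are the called peaks with no other peak of the list within 100 kb on either side. They were chosen by peak position alone: the gap to the previous and to the next peak had to exceed 100 kb, and the first or last peak of a chromosome needed only its 1 measured gap. Chromosome Y, with 27 peaks, was left out. Of the 7485 remaining peaks, 1932 met the rule, which is 25.8% (exact 95% binomial interval 24.8% to 26.8%). Intervals here treat peaks as independent draws and cover counting error only.

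The peaks come from chromatin immunoprecipitation with sequencing in C2C12 myotubes, muscle fibre-like cells formed by fusion of a mouse myoblast line. Near-confluent cells were differentiated for 72 h in 2% horse serum and then given an adenovirus that carries Flag-PGC-1alpha; as far as the labels say, this was true of every sample. The 2 immunoprecipitated samples (IP flag PGC-1alpha) were made with the M2 monoclonal against the Flag tag, and the 2 background samples (WCE) are whole cell extract taken without antibody. No sample lacks the tagged protein, the protein was delivered by a virus rather than mapped at its own level, and the labels do not tell whether replicates were separate cultures. A single peak list represents all 4 samples, so no peak has a height, a read depth or a value per replicate, and no spread between replicates can be given.

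PGC-1alpha is a coactivator: it has no DNA-binding domain of the usual kind and reaches chromatin through transcription factors such as the estrogen-related receptors, nuclear respiratory factors, PPARs and MEF2 proteins. In muscle it is known for raising mitochondrial and oxidative metabolism, capillary growth and fatigue resistance. Regulatory elements often lie in groups around a gene, and an element may also stand far from any other. The title of the study names AP-1, the dimer of Fos and Jun proteins, as a partner.

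Each isolated peak is 200 bp wide like all others, and together they cover 386.4 kb. Their positions are given 1-based on the mouse build mm9. Genes and sequence at these positions were not analysed here, because the reference tables at hand describe GRCm38.p6 and coordinates of 2 builds cannot be mixed. Isolation is relative to this list: a site that the authors' peak caller did not report is not seen. Since the rule, the bins and the gaps all rest on the same positions, the comparisons with other peaks are descriptions and carry no test.

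The gap to the nearer neighbour of an isolated peak had a median of 268.2 kb, with quartiles at 158.6 and 497.8 kb. In the other 5553 peaks the corresponding median was 5.13 kb. A nearer gap of 100 to 150 kb was found in 432 isolated peaks (22.4%), one above 500 kb in 477, one above 1000 kb in 171 and one above 2000 kb in 37. Separation by less than 500 kb was thus the rule among isolated peaks, and separation by megabases was found in a small minority.

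The rule does not fall at a natural break. The numbers on both sides of it were alike, with 105 peaks at a nearer gap of 100 to 110 kb and 110 at 90 to 100 kb. Just inside were the peak at chr7:31739098-31739297, at 100.05 kb from its nearer neighbour, and those at chr10:61687078-61687277 (100.4 kb), chr11:87877271-87877470 (101.0 kb), chr3:104666478-104666677 (101.0 kb) and chr12:28075770-28075969 (101.3 kb, tied with the isolated peak on the far side of that gap). Just outside were the peaks at chr13:30243368-30243567 (99.9 kb), chr1:173355251-173355450 (99.2 kb), chr6:147462674-147462873 and its neighbour chr6:147561999-147562198 (both 99.1 kb, the gap between them) and chr5:150291100-150291299 (98.9 kb). The 5 isolated peaks named here had their other neighbour at 422.8 to 796.1 kb.

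**Figure D1:**
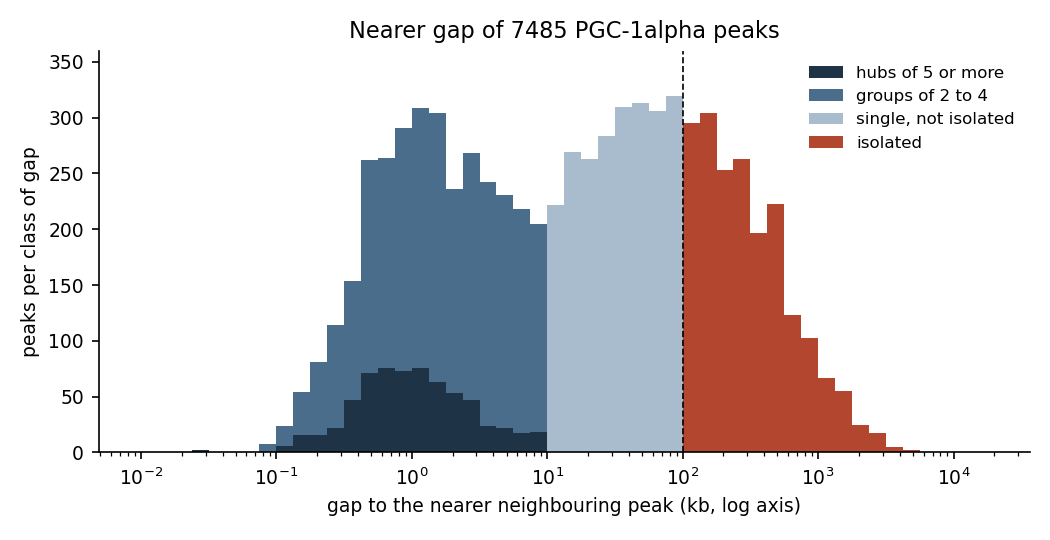
Number of peaks (vertical axis) by gap to the nearer neighbour (kb, log axis), stacked by kind of peak: the 1932 isolated peaks, 2286 single peaks with a neighbour between 10 and 100 kb away, 2618 peaks in groups of 2 to 4 and 649 in hubs of 5 or more joined at gaps of up to 10 kb. The dashed line marks 100 kb, where the numbers pass from one kind to the next without a dip.

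The 2 sides of an isolated peak were usually unequal. Among the 1906 isolated peaks with both gaps measured, the wider gap had a median of 769.8 kb and was 2.28 times the nearer one in the median peak. It was more than 10 times the nearer gap in 129 of them (6.77%). The nearer neighbour lay before the peak in 934 cases and after it in 972, so neither direction along the chromosome prevailed.

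The most remote isolated peaks lay in the middle of multi-megabase stretches. The peak at chr3:73598553-73598752 was 5260 kb from the previous peak and 5358 kb from the next, the widest nearer gap among isolated peaks. The peak at chrX:82823797-82823996 followed at 4859 kb on one side and 11011 kb on the other. It was trailed by chrX:40109897-40110096, with gaps of 4000 and 8039 kb. With gaps this wide, each of the 3 peaks was necessarily the only one in its 1 Mb bin.

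The next positions by nearer gap were chr14:88183723-88183922 (3784 kb), chr16:63770801-63771000 (3729 kb) and chr4:29758063-29758262 (3345 kb). They were followed by chrX:61548322-61548521 (3169 kb) and chr1:21004676-21004875 (3076 kb). The remaining 2 of the 10 widest, chrX:112326347-112326546 (3002 kb) and chrX:115328772-115328971 (2812 kb), are neighbours of each other. This order covers isolated peaks with both gaps measured; the last peak of chromosome 12, chr12:120716295-120716494, had its 1 gap at 2819 kb and is not ranked. Chromosome X supplied 5 of the 10 ranked peaks and holds 3.47% of isolated peaks. All 10 were alone in their 1 Mb bin, which gaps wider than the bin make certain.

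Isolated peaks border most of the empty sequence, which follows in part from the rule, since it asks for gaps above 100 kb on both sides. Of 7465 gaps between neighbouring peaks, 3326 (44.6%) exceeded 100 kb, and these made up 96.1% of the span. Of these wide gaps, 80.5% touched an isolated peak. Gaps that touch an isolated peak on at least 1 side numbered 2678, or 35.9% of gaps, and they made up 2116 of the 2532 Mb between the first and last peaks of the chromosomes, which is 83.6%. Of the 253 gaps above 2 Mb, 236 touched an isolated peak and 132 lay between a pair of them. The gap between 2 isolated peaks had a median of 517.4 kb, against 376.2 kb between an isolated and another peak. A gap above 100 kb between 2 other peaks had a median of 290.6 kb.

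Gaps above 100 kb tended to follow each other, counted over all peaks with both gaps measured, isolated or not. After a gap above 100 kb, the next gap was again above 100 kb for 57.5% of 3314 peaks, whereas after a narrower gap this was so for 34.0% of 4131. On autosomes alone the values were 56.8% and 33.9%. Among isolated peaks with a neighbour on both sides, 710 (37.3%) had another isolated peak on both sides, 881 (46.2%) on 1 side and 315 (16.5%) on none.

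Counted by flank, the next peak was isolated in 2320 of 3838 cases (60.4%), and on autosomes in 59.4%. It was a single but not isolated peak in 22.9%, a member of a group of 2 to 4 peaks in 15.6% and a member of a hub of 5 or more in 1.07%. When peaks joined at gaps of up to 10 kb are counted as 1 region, isolated peaks formed 35.8% of the 5403 regions, single peaks 42.3%, groups 20.1% and hubs 1.81%. The percentage of isolated peaks was therefore higher among flanks than among regions, and that of each other kind was lower. The peak next to an isolated one already has 1 gap above 100 kb by construction, so regions are not a like comparison. Of peaks with a gap above 100 kb before them and a measured next gap, 57.5% were isolated, against 60.4% of flanks. The difference between these 2 values was not tested.

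Rows of consecutive isolated peaks, with no other kind of peak between them, numbered 772. Of these, 322 were a lone isolated peak, and 100 had at least 5 members and held 698 isolated peaks (36.1%). The longest by far, with 34 members over 60.3 Mb, lay at chrX:104785247-165112496. It contained 50.7% of the isolated peaks of chromosome X in 38.2% of its span, and its gaps ran from 206.1 to 6915 kb with a median of 1170 kb. The next row, 15 members at chr2:11626879-19064578, was compact, with a span of 7.44 Mb and a median gap of 386.3 kb. The row after that was chr18:78118014-90008213, where 14 isolated peaks with a median gap of 563.1 kb closed the chromosome.

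By chromosome, the share of isolated peaks ran from 18.2% to 69.8%. Chromosome X stood apart: 67 of its 96 peaks were isolated (69.8%, interval 59.6% to 78.7%), against 1865 of 7389 on the autosomes (25.2%, interval 24.3% to 26.2%). Among the 19 autosomes the mean share was 25.7% ± 4.56 (SD). The highest were chromosome 18 with 72 of 195 peaks (36.9%, interval 30.1% to 44.1%) and chromosome 13 with 99 of 297 (33.3%, interval 28.0% to 39.0%). The lowest were chromosome 19 with 47 of 258 (18.2%, interval 13.7% to 23.5%), chromosome 4 with 111 of 541 (20.5%, interval 17.2% to 24.2%) and chromosome 6 with 90 of 424 (21.2%, interval 17.4% to 25.4%). The intervals of these 5 autosomes exclude the share of the whole list, as does that of chromosome X, and those of the other 14 autosomes include it. The whole list counts chromosome X and the chromosome being compared, and the interval of chromosome 6 does include the 25.2% of the autosomes. Neighbouring peaks share a gap and are not independent draws, so the intervals are no test of a difference between chromosomes.

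**Figure D2:**
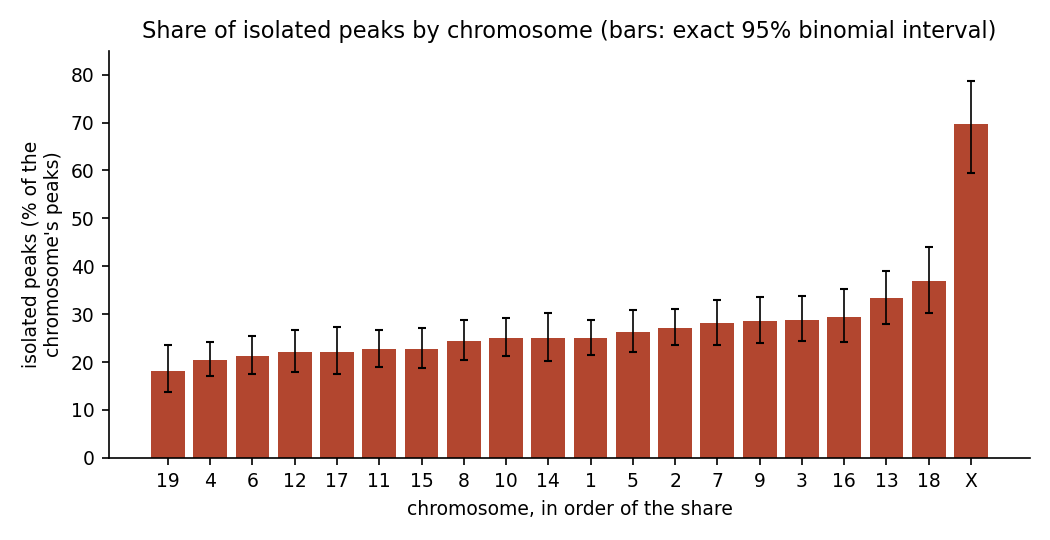
Isolated peaks as a percentage of each chromosome's peaks (bars), ordered by the share, with exact 95% binomial intervals (error bars). Chromosome X at 69.8% lies above every autosome, and neighbouring autosomes in the order have overlapping intervals.

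In number, chromosomes 2 and 1 held the most isolated peaks, 151 and 138, followed by chromosome 10 with 120. Chromosomes 4 and 5 had 111 each and chromosome 3 had 110. Chromosomes 7 and 11 had 105 each, and chromosomes 8 and 9 had 103 each. Chromosome 15 held 94, chromosomes 12 and 16 held 81 each, chromosome 14 held 79, and chromosome 17 held 65. The shares of these 15 chromosomes lay between 20.5% on chromosome 4 and 29.5% on chromosome 16. Neighbours in that order had intervals that overlap.

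Per megabase, isolated peaks were spread more evenly over the autosomes than the rest. The span of a chromosome is taken from its first to its last peak. Isolated peaks occurred at 0.793 ± 0.0919 per Mb (SD over 19 autosomes), a coefficient of variation of 11.6%, and other peaks at 2.37 ± 0.566 per Mb, a coefficient of 23.8%. The highest autosome exceeded the lowest 1.52 times for isolated peaks (0.968 on chromosome 10, 0.637 on chromosome 6) and 2.56 times for other peaks (3.64 on chromosome 19, 1.42 on chromosome 18). Chromosomes 18 and 19, at the ends of the autosomal order of shares, had nearly equal densities of isolated peaks, 0.833 and 0.811 per Mb. Their densities of other peaks differed, at 1.42 and 3.64 per Mb. The rule sorts a peak into 1 kind or the other by its neighbours, so the 2 densities are not separate. The part of the density of all peaks in the different shares was not tested. A limit of 100 kb itself bounds how densely isolated peaks can lie, and the part of this bound in the evenness was not tested.

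On chromosome X both kinds were sparse, but not equally so. It had 0.424 isolated peaks per Mb, 0.540 times the value of the autosomes together, and 0.184 other peaks per Mb, 0.0789 times theirs. Its isolated peaks were also farther apart, with a median nearer gap of 671.4 kb against 261.3 kb on autosomes. The autosomal medians ranged from 215.8 kb on chromosome 15 to 325.9 kb on chromosome 5. To count among the other peaks, a peak needs a neighbour within 100 kb. All peaks together lay at 0.608 per Mb on chromosome X, against a mean of 3.17 per Mb on the autosomes. The part of this low density in the contrast, and in the high share of chromosome X, was not tested.

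**Figure D3:**
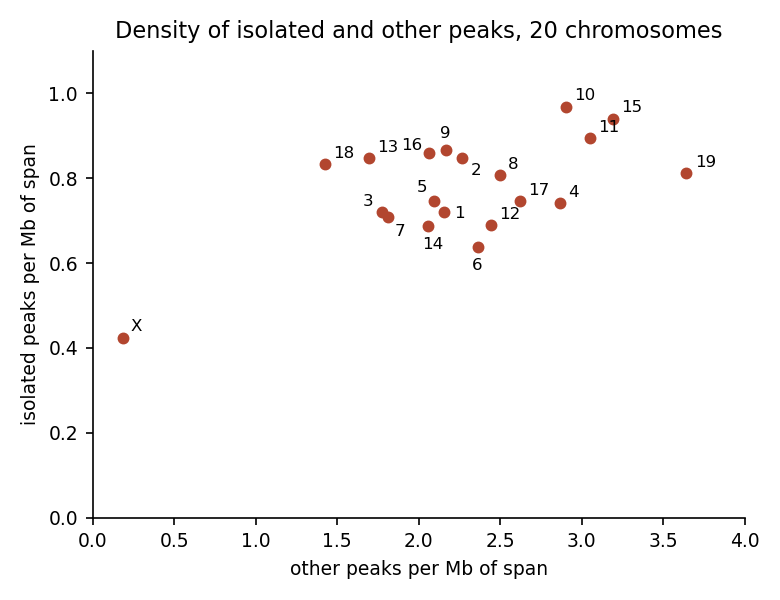
Isolated peaks per Mb of span (vertical axis) against other peaks per Mb (horizontal axis), 1 point per chromosome. The autosomes spread from 1.42 to 3.64 along the horizontal axis and only from 0.637 to 0.968 along the vertical, and chromosome X lies near the lower left corner.

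Across the 19 autosomes the share of isolated peaks fell with the density of all peaks (Spearman's rho = -0.76, Pearson's r = -0.76), and the density of isolated peaks ran weakly with that of other peaks (rho = 0.31, r = 0.32). These coefficients describe 19 chromosomes of 1 list. The first pair share the number of peaks, which enters both axes.

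Isolated peaks were next placed in bins of 1 Mb laid from position 0, each peak going to the bin of its start. The bins with at least 1 peak numbered 1787, and 764 bins between the first and last peaks were empty. An isolated peak lay in 1368 of the occupied bins (76.6%). In 760 bins there were only isolated peaks, and these held 1057 of the 1932 (54.7%). One bin had 5 isolated peaks, the highest number.

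The bin of an isolated peak held a median of 3 peaks, itself included, with quartiles of 1 and 5. For other peaks the median was 8, with quartiles of 5 and 13. The isolated peak was the sole peak of its bin in 514 cases (26.6%, interval 24.6% to 28.6%), and 922 (47.7%) lay in sparse bins of 1 or 2 peaks. Of the other peaks, 14 (0.252%, interval 0.138% to 0.423%) were alone in their bin, their neighbour lying across the bin's edge, and 4.54% lay in sparse bins. On chromosome X, 44 of 67 isolated peaks were alone in their bin (65.7%, interval 53.1% to 76.8%), against 470 of 1865 on autosomes (25.2%, interval 23.2% to 27.2%).

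Isolated peaks were not confined to sparse bins. In the 169 dense bins of 10 or more peaks there were 148 isolated peaks, 7.66% of all isolated peaks, and 107 of these bins (63.3%) had at least 1. There they made up 6.10% of the peaks, compared with 15.2% in bins of 6 to 9, 29.6% in bins of 3 to 5, 63.2% in bins of 2 and 97.3% in bins of 1. Their number per bin changed little over this range, from 1.26 in bins of 2 peaks to 1.14 in bins of 3 to 5, 1.09 in bins of 6 to 9 and 0.876 in dense bins. It was 0.973 in bins of 1 peak, where it cannot exceed 1. Bin classes count the isolated peaks themselves, and the 100 kb limit bounds how many a bin can hold. The part of this in the small change per bin was not tested.

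**Figure D4:**
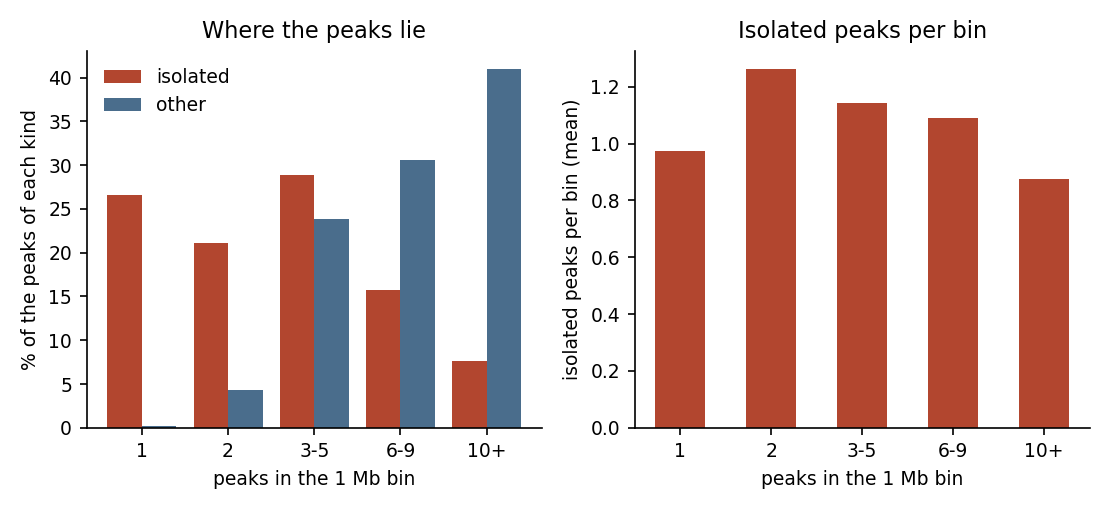
Left, percentage of the 1932 isolated and of the 5553 other peaks that lie in 1 Mb bins of 1, 2, 3 to 5, 6 to 9 and 10 or more peaks; right, mean number of isolated peaks per bin of each class. Isolated peaks move from 26.6% to 7.66% between the sparsest and densest class and other peaks from 0.252% to 41.0%, while the number of isolated peaks per bin stays between 0.876 and 1.26.

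The fullest bins show how an isolated peak can sit beside crowded sequence. On chromosome 14, 33 peaks shared the bin starting at 26 Mb, and of these chr14:26007398-26007597 and chr14:26586998-26587197 were isolated. The first had gaps of 404.4 and 150.9 kb, and the second had gaps of 126.9 and 556.2 kb. The peak at chr1:92797201-92797400 lay in a bin of 29, as did another isolated peak on chromosome 8, and the former had gaps of 372.3 and 155.6 kb. The median nearer gap of isolated peaks was 762.6 kb in bins of 1 peak, 289.9 kb in bins of 2, 201.4 kb in bins of 3 to 5, 164.9 kb in bins of 6 to 9 and 159.5 kb in dense bins.

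Beyond the empty 100 kb, the density of peaks around isolated peaks changed little with distance. Peaks of any kind, isolated or not, were counted here. They lay at 3.58 per Mb at distances of 100 to 200 kb from an isolated peak and at 3.78 per Mb from 200 to 500 kb. Farther out they lay at 3.64 from 500 to 1000 kb, at 3.39 from 1000 to 2000 kb and at 3.12 from 2000 to 5000 kb. The density over all spans was 2.96 per Mb. Around the other peaks the density declined over the same distances, from 8.45 per Mb at 100 to 200 kb to 5.84, 5.08, 4.50 and 3.82.

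The density around isolated peaks was thus 0.424 times that around other peaks at 100 to 200 kb, 0.649 times at 200 to 500 kb and 0.816 times at 2000 to 5000 kb. On autosomes alone the densities at 2000 to 5000 kb were 3.21 per Mb around isolated and 3.83 per Mb around other peaks. The densities thus differed also at distances past the 100 kb that the rule used. Positions at all these distances belong to 1 list and are not independent of it. The part of the rule in the difference was not tested.

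**Figure D5:**
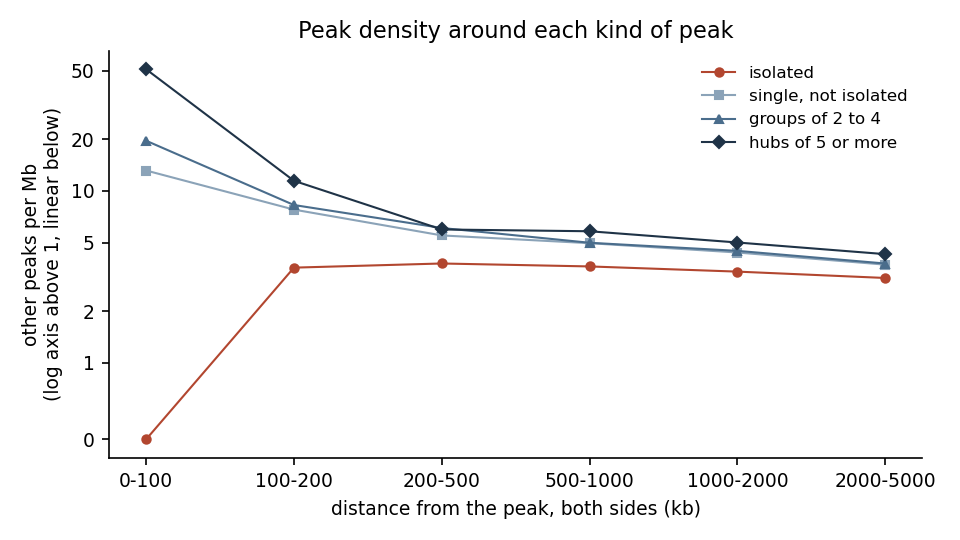
Peaks of any kind per Mb, the central peak left out (vertical axis, log above 1 and linear below), by distance from a peak on both sides (kb). Lines show isolated peaks, single peaks that are not isolated, groups of 2 to 4 and hubs of 5 or more. Isolated peaks start at 0 by definition, reach 3.58 at 100 to 200 kb and stay nearly level, below the other 3 kinds in each distance class.

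Single peaks that are not isolated are the most similar kind, since they also lack a neighbour within 10 kb. Their surroundings resembled those of grouped peaks more than those of isolated peaks. They had 7.79 peaks of any kind per Mb at 100 to 200 kb, against 8.28 for groups of 2 to 4 and 3.58 for isolated peaks. Their bins held a median of 7 peaks, and 29.9% of them lay in dense bins, against 7.66% of isolated peaks. Isolated peaks also lay farther from hubs: the nearest hub peak was at a median of 12254 kb, with 145 (7.51%) within 1 Mb. Single peaks that are not isolated had a median of 7626 kb and 17.3% within 1 Mb. Chromosome X, with 7 hub peaks, is included. The rule bars a hub peak within 100 kb of an isolated peak only, and its part in this difference was not tested.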

How the data were processed

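ChIP-seq was made from 2 immunoprecipitated and 2 whole cell extract samples of C2C12 myotubes. Bowtie 0.12.7 and the genome build mm9 are named in the submitters' processing notes. How peaks were called, at which thresholds and on pooled or single replicates is not given in the sources used here. In all, the authors deposited 1 list of 3 columns (chromosome, start, end) with no score, so read depth and its precision are unknown. Gaps are the bases between the end of one peak and the start of the next. Peaks were joined into groups and hubs at gaps of up to 10 kb, and distance profiles count starts within the span of a chromosome. Python 3.11.15, numpy 2.4.6, pandas 2.3.3, scipy 1.17.1 and matplotlib 3.10.9 were used, and the code was tested on simulated data.

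The rule, the kinds of peak and the bin classes were chosen with earlier results of these data known. Named peaks are the 10 with the widest nearer gap among those with both gaps measured, the 5 on each side of the limit, the 3 longest rows and the 3 in the fullest bins; ties among peaks went to the first in genome order. A planned test of gene position and sequence elements needs mm9 and was not run.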

Additional observations from a re-analysis of the deposited data

How the results depend on the processing

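The share of isolated peaks follows its limit: it was 36.0% at 50 kb, 16.2% at 200 kb and 6.37% at 500 kb, and 42.2% of sites when peaks within 10 kb were first joined. The median share over 20 chromosomes went to 35.9% at 50 kb and 16.2% at 200 kb. Chromosome 19 went to 24.8% at 50 kb, 10.9% at 200 kb and 36.1% of joined sites. Chromosome X stayed within its interval, with 71.9% at 50 kb and 66.7% at 200 kb, and went to 83.5% of joined sites. Chromosome X had the highest share in all 4 settings; chromosome 19 had the lowest in 3, and chromosome 12 (34.0%) with joined sites. The joining by chromosome and the restriction of the overall share to autosomes were chosen after seeing the data. The share alone in its bin was 52.0% with bins of 500 kb and 8.85% with bins of 2 Mb. Apart from chromosome X, changes under 1 interval or spread came from counting starts, chromosome ends, chromosome Y, autosomes only, shifted bins and centred windows. At 50 and 200 kb the coefficient of variation over autosomes was 13.7% and 13.0% for isolated and 25.4% and 22.7% for other peaks. No paired analysis was possible because peaks carry no replicate values, which also kept replicates from being left out in turn. Without read depth, sites missing from the list cannot be bounded.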

Other observations

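In the share that lay in the distal 50% of the span, isolated peaks varied less between autosomes than other peaks. Of the isolated peaks, a mean of 52.3% ± 6.06 lay in the distal 50% of the span (SD over 19 autosomes), with a range of 39.5% to 59.5%. The other peaks had a mean of 55.8% ± 14.6 and a range of 28.5% to 77.7%. On chromosome 8, the distal 50% held 56.3% of isolated and 77.7% of other peaks, and on chromosome 17 it held 46.2% and 28.5%. On chromosome X, 38 of 67 isolated peaks (56.7%) and 24.1% of the 29 other peaks were distal. These values describe 1 list and 1 division of the span. The rule keeps isolated peaks more than 100 kb apart, and each other peak has a neighbour within 100 kb. Neither the difference between the 2 kinds nor the part of the rule in it was tested.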
